A study of Mus musculus with 12 samples.

Results

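The 31 genes described here are markers and working parts of astrocytes and of the oligodendrocyte lineage, the macroglia of the central nervous system. They were chosen by name, 17 astrocyte and radial glia genes, 5 genes of oligodendrocyte progenitors and their transcription factors, and 9 genes of myelin and myelinating cells. All 31 were found among the 24060 rows of the expression tables. The tissue was 12 rhabdoid tumors that arose in P0-CreC;Smarcb1flox/flox mice on the FVB/N background, without any treatment. In these mice the P0-CreC transgene expresses Cre recombinase in early neural crest cells and the Schwann cell lineage, and Cre deletes both copies of Smarcb1, a core subunit of the SWI/SNF chromatin remodeling complex. All the groups share this genotype, so the tumors could be compared only by location, and no normal brain, nerve or Cre-negative tissue was analysed here. The labels place 4 tumors in the Retro-orbital group, 3 in Cheek, 3 in Meninges, 1 in Vestibular N and 1 in Trigeminal N. Meninges, Vestibular N and Trigeminal N are called intracranial or inside the skull below, and Retro-orbital and Cheek extracranial or outside. This grouping was made here and is not in the labels. Ages were not given per tumor. Within a location the tumors were numbered in the order of deposit. Cheek tumors 2 and 3 share the first part of their identifier, as do Cheek tumor 1 and Meninges tumor 1, and Retro-orbital tumor 3 and the Trigeminal N tumor; whether tumors with a shared identifier came from 1 animal is not stated.

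Astrocytes take up glutamate and potassium from the extracellular space, ensheathe blood vessels and line the brain surface. Oligodendrocytes arise from progenitors under the control of Olig and Sox transcription factors and wrap the axons of the brain, spinal cord and optic nerve in myelin, whereas Schwann cells make the myelin of the cranial nerves beyond their entry zones. Schwann cells share Mbp, Mag, Cnp and Ugt8a with oligodendrocytes and S100b with astrocytes. The paper also used the Gfap promoter to target immature Schwann cells, and FABP7 protein as an early marker of Schwann cell precursors. Gja1, Glul, Sparcl1 and Clu are used by many cell types. The comparison addressed whether astrocyte and myelin genes varied together across the tumors or apart from each other, since tumors of the head can lie against or grow into the brain.

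The values are RPKM, read fragments per kilobase of transcript scaled to the fragments of the tumor, so levels of different genes can be set side by side per length. The fragment totals behind them, recovered from the steps between low values, ranged from 13206168 to 57128422 per tumor with a median of 27929720, and 12575 to 14528 genes per tumor reached 1 RPKM. In bulk tissue, fewer cells of a type and less RNA per cell cannot be told apart. Smarcb1 itself was read at 1.70 to 6.31 RPKM, with the lowest value in the Vestibular N tumor. A count over the whole gene includes reads from parts that Cre does not remove and from cells without Cre, and the deposited values do not separate these. Retro-orbital tumor 3 stood apart from the other 6 extracranial tumors in most astrocyte genes, and results that rest on it are given with and without it.

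Promoter sequences of 3 members are shown because these genes mark the contrast that follows, Mobp and Mag as myelin genes whose intracranial values all lay above the extracranial ones and Gfap as the astrocyte gene that split the tumors into separate sets. Each runs from 250 bases before to 50 bases after the RefSeq transcript start on GRCm38.p6. Capitals mark the letters ACAAAG or its reverse complement CTTTGT, the core recognized by SOX factors, which was searched on both strands together with the NFI half-site TTGGCA (reverse complement TGCCAA). The Mobp promoter is chr9:120149492-120149791 on the plus strand, the Mag promoter chr7:30914814-30915113 on the minus strand and the Gfap promoter chr11:102897151-102897450 on the minus strand.
Mobp: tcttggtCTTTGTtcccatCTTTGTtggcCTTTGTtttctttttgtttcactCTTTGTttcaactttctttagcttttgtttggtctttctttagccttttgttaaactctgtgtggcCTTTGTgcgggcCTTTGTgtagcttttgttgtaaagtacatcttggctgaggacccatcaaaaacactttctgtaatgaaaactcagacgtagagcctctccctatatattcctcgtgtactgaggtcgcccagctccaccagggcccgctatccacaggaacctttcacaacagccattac
Mag: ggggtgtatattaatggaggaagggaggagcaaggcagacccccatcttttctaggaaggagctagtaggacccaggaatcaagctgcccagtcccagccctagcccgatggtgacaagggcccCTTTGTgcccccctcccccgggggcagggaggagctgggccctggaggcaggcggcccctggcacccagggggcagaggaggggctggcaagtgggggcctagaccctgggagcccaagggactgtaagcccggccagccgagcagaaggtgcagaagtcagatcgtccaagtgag
Gfap: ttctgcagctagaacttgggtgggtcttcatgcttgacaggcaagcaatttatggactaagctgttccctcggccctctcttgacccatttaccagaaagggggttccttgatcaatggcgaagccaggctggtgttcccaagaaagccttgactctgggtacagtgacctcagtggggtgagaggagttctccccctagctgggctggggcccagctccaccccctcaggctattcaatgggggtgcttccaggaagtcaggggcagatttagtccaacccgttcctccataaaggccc
The Mobp promoter held 6 SOX cores, and it was the only 1 of 32851 RefSeq promoters of this length with at least that many. This was noticed after the search was run. At least 1 SOX core was present in 18.7% of all promoters, in 5 of 10 promoters of myelin members (Mobp, Cnp, Opalin and 2 of Mag), and in 0 of 16 promoters of astrocyte members. The 2 Mag promoters overlap and hold the same SOX core, so that 1 site is counted in both. A SOX core was also present in 5 of 9 promoters of lineage members, all 5 of them alternative promoters of Sox6. The NFI half-site was present in 14.1% of all promoters and in 2 of 16 astrocyte promoters, those of Aldoc and S100b. Promoters were found for 26 of the 31 members, and several belong to 1 gene. These matches are letters in a window and were not tested.

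**Figure D1:**
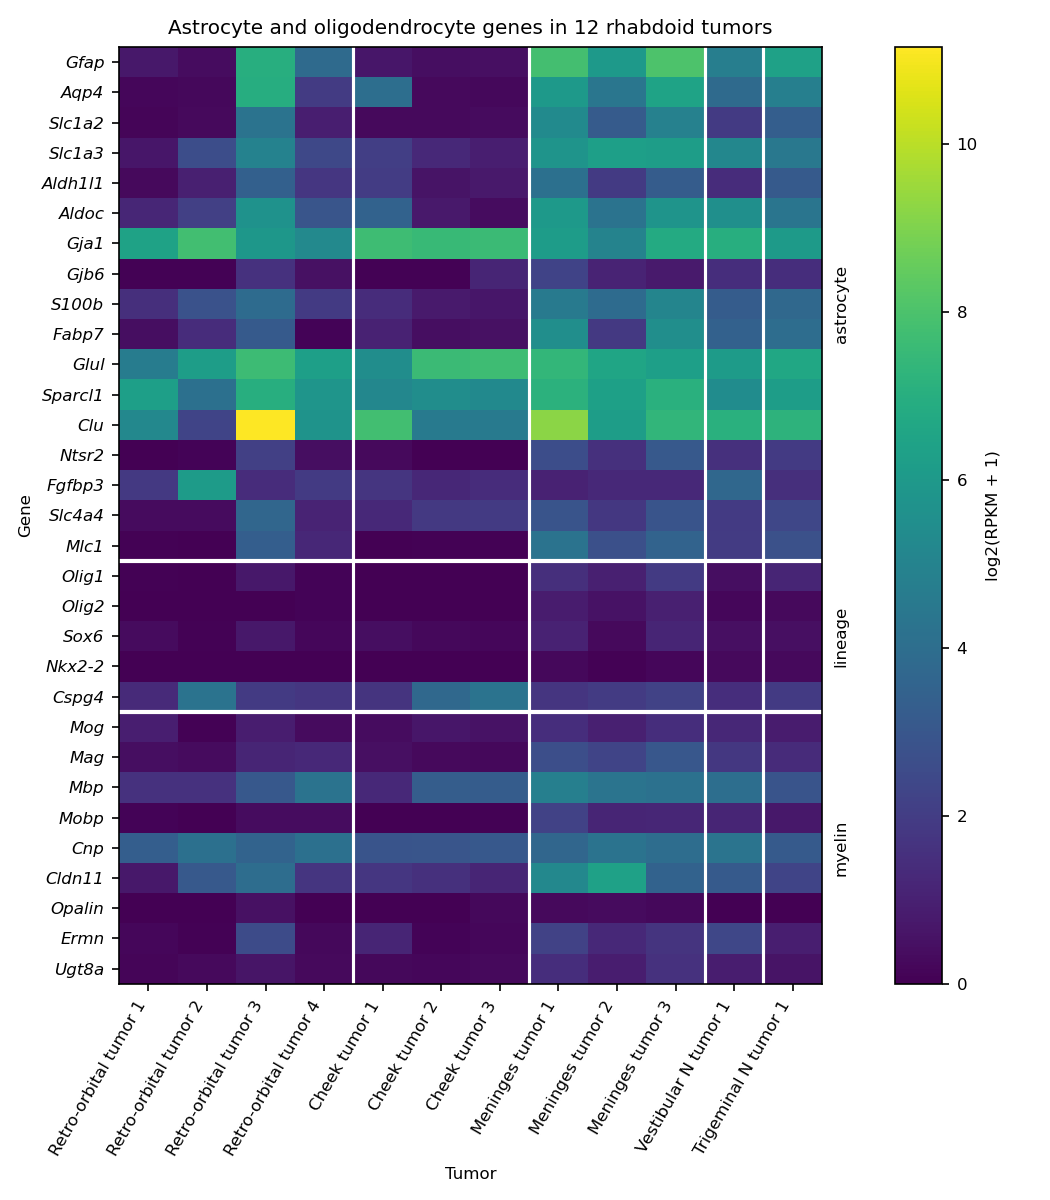
Level of the 31 genes (rows, grouped as astrocyte, oligodendrocyte lineage and myelin genes) in each of the 12 tumors (columns, white lines between locations), as color from 0 to the highest log2(RPKM + 1). Gfap, Slc1a3 and Aldoc are bright in Retro-orbital tumor 3 and the 5 intracranial tumors, whereas Gja1, Glul and Cnp are seen in all tumors and the lineage rows stay dark except Cspg4.

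Gfap, the intermediate filament protein that defines reactive astrocytes, divided the tumors into 2 sets with a wide gap. In the Retro-orbital tumors it was at 0.626, 0.309, 128 and 13.3 RPKM, and in the Cheek tumors at 0.589, 0.324 and 0.353 RPKM. In the Meninges tumors it was at 228, 65.1 and 259.8 RPKM, in the Vestibular N tumor at 26.3 RPKM and in the Trigeminal N tumor at 81.5 RPKM. Thus 7 tumors lay at 13.3 RPKM or above and 5 at 0.626 RPKM or below, with none between, and all 5 intracranial tumors (Meninges, Vestibular N and Trigeminal N) were in the high set. The high set also held Retro-orbital tumors 3 and 4, so location alone did not separate it. Retro-orbital tumors lie near the optic nerve, which also holds glia, so outside the skull does not mean away from central nervous tissue. The part of the optic nerve in these values was not tested.

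Aqp4, the water channel of astrocyte end-feet, followed Gfap closely with 1 exception. It was at 0.153, 0.181, 121 and 2.83 RPKM in the Retro-orbital tumors and at 15.4, 0.211 and 0.164 RPKM in the Cheek tumors. The intracranial values were 65.3, 19.7 and 88.5 RPKM in Meninges, 13.4 RPKM in Vestibular N and 27.4 RPKM in Trigeminal N. Cheek tumor 1 therefore carried Aqp4 at a level between those of the Vestibular N tumor and Meninges tumor 2 while its Gfap was at 0.589 RPKM, and Retro-orbital tumor 3 had the highest Aqp4 of all. Within the 7 tumors with high Gfap, Gfap and Aqp4 were correlated on the log2(RPKM + 1) scale (Pearson's r = 0.93, exact two-sided permutation p = 0.0024, adjusted over 6 gene pairs p = 0.014, n = 7). Spearman's coefficient was 0.89 (exact permutation p = 0.012, adjusted p = 0.074), and r was 0.83 without the 2 tumors farthest from the median of Gfap. The adjusted p of r was above 0.05 when any 1 of Retro-orbital tumor 4, the 3 Meninges tumors or the Trigeminal N tumor was left out, with r between 0.86 and 0.94 in those 5 fits. The 12 tumors as a whole were not pooled for Gfap, because they fall into separate sets.

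The glutamate transporters differed in how low they went outside the skull. Slc1a2 (GLT-1), which clears most synaptic glutamate in the forebrain, was at 0.113, 0.228, 17.8 and 0.890 RPKM in the Retro-orbital tumors and at 0.202, 0.208 and 0.238 RPKM in the Cheek tumors, against 39.4, 8.17 and 28.6 RPKM in Meninges, 2.77 RPKM in Vestibular N and 9.04 RPKM in Trigeminal N. Only Retro-orbital tumor 3 overlapped the intracranial range. Slc1a3 (GLAST), also a transporter of radial glia, was at 0.606, 5.23, 29.3 and 4.37 RPKM in the Retro-orbital tumors and at 3.16, 1.44 and 0.90 RPKM in the Cheek tumors, and the intracranial tumors had 54.2, 77.6 and 73.0 RPKM in Meninges, 34.3 RPKM in Vestibular N and 21.1 RPKM in Trigeminal N. Retro-orbital tumor 3 again lay inside the intracranial range, just above the Trigeminal N tumor.

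Fabp7 is a fatty acid binding protein of radial glia and also of Schwann cell precursors. The paper reported strong FABP7 protein staining in tumors of this genotype, most of which showed no GFAP staining. Whether those were the sequenced tumors is not stated. Fabp7 RNA was at 0.339, 1.70, 7.86 and 0.0637 RPKM in the Retro-orbital tumors, at 1.11, 0.322 and 0.397 RPKM in the Cheek tumors, at 44.8, 2.59 and 44.4 RPKM in Meninges, at 10.2 RPKM in Vestibular N and at 14.9 RPKM in Trigeminal N. Meninges tumor 2 was the low one among the intracranial tumors, below Retro-orbital tumor 3. Mlc1, a membrane protein of astrocyte end-feet, was at 0.0476, 0.0292, 8.93 and 1.37 RPKM in the Retro-orbital tumors, at 0, 0.0395 and 0.0325 RPKM in the Cheek tumors, at 17.8, 5.55 and 10.7 RPKM in Meninges, at 2.86 RPKM in Vestibular N and at 5.76 RPKM in Trigeminal N. Its order across the tumors was close to that of Gfap (r = 0.99 over the 12 tumors, a description). Ntsr2, a neurotensin receptor of astrocytes, ranged from 1.94 to 7.59 RPKM inside the skull and from 0 to 3.36 RPKM outside, where its highest value was again in Retro-orbital tumor 3.

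Of the metabolic and calcium-binding astrocyte genes, Aldoc, a glycolytic aldolase, ranged from 18 to 62.3 RPKM in the intracranial tumors and from 0.311 to 50.8 RPKM in the extracranial ones, with Retro-orbital tumor 3 at the top. S100b, a calcium-binding protein also made by Schwann cells, ranged from 8.56 to 32.5 RPKM inside the skull and from 0.593 to 14.0 RPKM outside. Aldh1l1, a folate enzyme used as a pan-astrocyte marker, overlapped more, at 1.65 to 16.2 RPKM inside and 0.215 to 9.75 RPKM outside. Slc4a4, a sodium bicarbonate cotransporter, was at 2.50 to 6.54 RPKM inside and 0.237 to 12.0 RPKM outside, with the top value in Retro-orbital tumor 3.

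The members that many cell types use behaved differently from Gfap. Gja1, the gap junction protein connexin 43, was at 85.7, 219.5, 59.1 and 37.2 RPKM in the Retro-orbital tumors, at 205, 180.0 and 191 RPKM in the Cheek tumors, at 71.1, 31.2 and 111 RPKM in Meninges, at 124 RPKM in Vestibular N and at 66.6 RPKM in Trigeminal N. It was high in all 3 Cheek tumors, where Gfap was below 1 RPKM. Gjb6, connexin 30 and the astrocyte partner of Gja1, was at 0.0310 to 2.0 RPKM outside the skull and 0.767 to 3.79 RPKM inside, so that the ratio of Gja1 to Gjb6 per length ran from 18.8 in Meninges tumor 1 to 159 in Cheek tumor 3 in 8 tumors. In the other 4 (Retro-orbital tumors 1 and 2 and Cheek tumors 1 and 2) Gjb6 rested on 2 or 3 fragments and no ratio is given. Glul, glutamine synthetase, was at 25.0 to 203 RPKM outside and 67.9 to 166 RPKM inside, and Sparcl1 (hevin), a secreted matrix protein, at 16.1 to 127 and 41.3 to 142 RPKM. The groups overlapped broadly for both.

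Clu, the secreted chaperone clusterin, showed the highest single value of any member. It was at 35.5, 3.93, 2273 and 52.2 RPKM in the Retro-orbital tumors, at 218, 22.7 and 22.1 RPKM in the Cheek tumors, at 589, 72.0 and 163 RPKM in Meninges, at 133 RPKM in Vestibular N and at 148 RPKM in Trigeminal N. In Retro-orbital tumor 3 it was the gene with rank 12 of all genes. Fgfbp3, a binding protein for fibroblast growth factors, was at 68.0 RPKM in Retro-orbital tumor 2, at 12.4 RPKM in the Vestibular N tumor and between 1.08 and 2.75 RPKM in the other 10 tumors. Neither of the 2 tumors with high Fgfbp3 was among the 5 with the highest Gfap.

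Olig2 and Nkx2-2, transcription factors of oligodendrocyte progenitors, were close to the limit of detection in nearly all tumors outside the skull. Olig2, which specifies the lineage, was read in 53, 28 and 42 fragments in the Meninges tumors, in 9 in the Vestibular N tumor and in 12 in the Trigeminal N tumor, which is 0.790, 0.437, 0.968, 0.130 and 0.233 RPKM. In the Retro-orbital tumors it had 0, 0, 0 and 8 fragments, and in the Cheek tumors 1, 1 and 0. No fragment of Olig2 was therefore counted in Retro-orbital tumor 3, the tumor with the deepest total and with Gfap at 128 RPKM, and 3 fragments there would be worth 0.0215 RPKM, the level that a count of 0 allows.

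Olig1, its partner, was at 1.86, 0.998 and 2.77 RPKM in Meninges, at 0.340 RPKM in Vestibular N and at 1.24 RPKM in Trigeminal N. Outside the skull it was at 0.0340, 0, 0.637 and 0.0670 RPKM in the Retro-orbital tumors and at 0, 0.0141 and 0 RPKM in the Cheek tumors, so Retro-orbital tumor 3 overlapped only the Vestibular N tumor. Nkx2-2, a homeobox factor of progenitors, had 4 to 14 fragments in each intracranial tumor and at most 2 in any extracranial one. Sox6, which holds progenitors immature, was at 0.207 to 1.24 RPKM inside and 0.0472 to 0.641 RPKM outside. Cspg4 (NG2) marks progenitors but also pericytes, and its values followed other tumors: 18.2 RPKM in Retro-orbital tumor 2, 12.7 and 18 RPKM in Cheek tumors 2 and 3, and 1.54 to 3.61 RPKM in the other 9 tumors. The tumors highest in Cspg4 were not those highest in Olig2. Olig2, Nkx2-2 and Opalin did not reach 1 RPKM in any tumor.

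Myelin genes spanned a narrower range than Gfap, and some kept the locations apart. Mag, an adhesion protein of the innermost myelin layer, was at 0.335, 0.266, 1.25 and 1.46 RPKM in the Retro-orbital tumors, at 0.363, 0.227 and 0.187 RPKM in the Cheek tumors, at 5.39, 3.95 and 7.06 RPKM in Meninges, at 2.47 RPKM in Vestibular N and at 1.56 RPKM in Trigeminal N. Mobp, a basic protein of oligodendrocyte myelin, was at 0.0748, 0.00766, 0.308 and 0.290 RPKM in the Retro-orbital tumors, at 0.00795, 0 and 0.0512 RPKM in the Cheek tumors, at 3.59, 1.22 and 1.29 RPKM in Meninges, at 1.20 RPKM in Vestibular N and at 0.649 RPKM in Trigeminal N. For both genes every intracranial tumor lay above every extracranial one, Retro-orbital tumor 3 included.

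Mbp, a major protein of compact myelin in both central and peripheral nerves, was at 2.0, 2.01, 7.33 and 17.7 RPKM in the Retro-orbital tumors, at 1.41, 8.87 and 8.37 RPKM in the Cheek tumors, at 26.8, 18.5 and 16.6 RPKM in Meninges, at 15.3 RPKM in Vestibular N and at 6.40 RPKM in Trigeminal N. Its groups overlapped, with Retro-orbital tumor 4 above 3 of the 5 intracranial tumors. Mog, a surface protein of central myelin that Schwann cells do not make, stayed within 0.0598 to 0.887 RPKM outside the skull and 0.802 to 1.74 RPKM inside. The lowest intracranial Mog, in the Trigeminal N tumor, was below the values of Retro-orbital tumors 1 and 3.

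Of the other myelin members, Cnp, an enzyme of non-compact myelin, varied least, from 6.35 to 18.4 RPKM over the 12 tumors. Cldn11, the claudin of central myelin tight junctions that other cells also use, was at 36.2 and 83.4 RPKM in Meninges tumors 1 and 2 and at 0.631 to 14.8 RPKM in the other 10 tumors. Ermn, a cytoskeletal protein of mature oligodendrocytes, was at 4.81 RPKM in Retro-orbital tumor 3, at 0.0580 to 1.20 RPKM in the other 6 extracranial tumors and at 0.899 to 4.15 RPKM inside the skull. Ugt8a, which makes the galactolipids of myelin, was at 0.486 to 1.98 RPKM inside and 0.103 to 0.550 RPKM outside. Opalin, a central myelin protein, had 21 fragments (0.412 RPKM) in Retro-orbital tumor 3 and at most 6 in any other tumor.

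**Figure D2:**
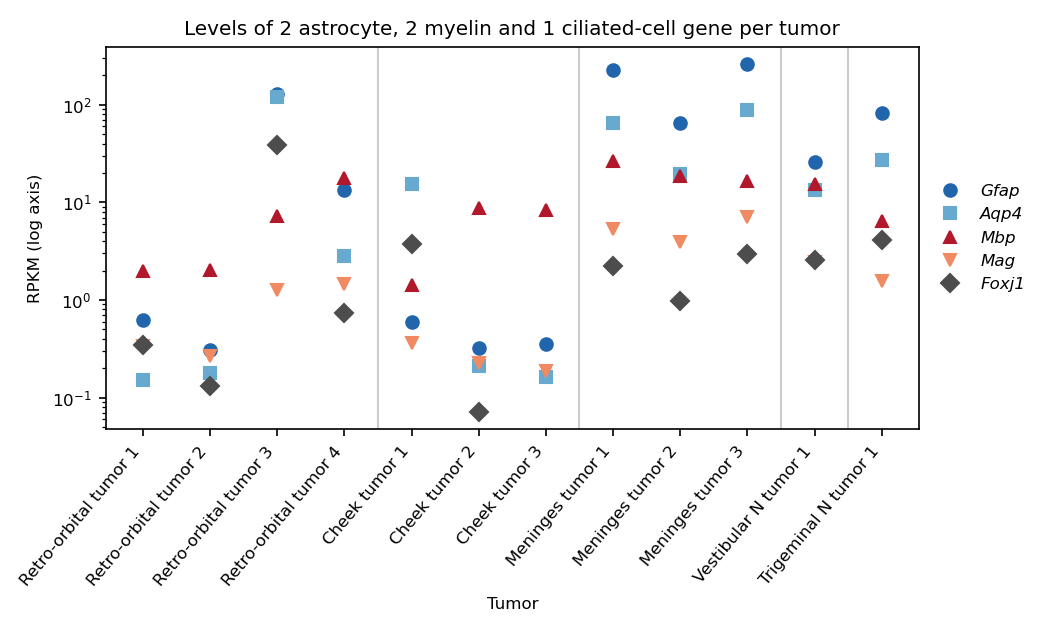
RPKM on a log axis of Gfap and Aqp4 (astrocyte), Mbp and Mag (myelin) and Foxj1 (ciliated cells) in each of the 12 tumors, with grey lines between locations; Foxj1 was 0 in Cheek tumor 3 and has no point there. In Retro-orbital tumor 3, Gfap at 128 and Foxj1 at 39.2 RPKM stand far above the other Retro-orbital tumors, while Mag is at 1.25 RPKM.

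The comparison of astrocyte with myelin genes used ratios of RPKM within a tumor. The ratio of Gfap to Mag was 42.3, 16.5 and 36.8 in the Meninges tumors, 10.7 in the Vestibular N tumor and 52.4 in the Trigeminal N tumor. It was 102 in Retro-orbital tumor 3 and 9.14 in Retro-orbital tumor 4, and between 1.16 and 1.89 in the other 5 extracranial tumors. Retro-orbital tumor 3 thus had the highest Gfap for its Mag, with Gfap between those of the Trigeminal N tumor and Meninges tumor 1 and Mag below all the intracranial values. The ratio of Gfap to Mbp varied by more, from 0.0365 in Cheek tumor 2 to 17.5 in Retro-orbital tumor 3.

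Averaged over the 17 astrocyte and the 9 myelin members on the log2(RPKM + 1) scale, the astrocyte level was above the myelin level in 12 of 12 tumors. The difference was 3.03 in Retro-orbital tumor 3, 2.52, 1.35 and 2.65 in the Meninges tumors, 1.76 in the Vestibular N tumor and 2.73 in the Trigeminal N tumor, and 0.94 to 1.72 in the other 6 tumors. This average includes Gja1, Glul, Sparcl1 and Clu. A narrower set held 8 astrocyte members, chosen after seeing the data: Gfap, Aqp4, Slc1a2, Aldh1l1, Gjb6, Ntsr2, Slc4a4 and Mlc1. These 8 are called restricted in the figure, but they are not made by astrocytes alone. Slc4a4, for example, was at 2.56 and 2.76 RPKM in Cheek tumors 2 and 3, where Gfap was below 1 RPKM. With these 8 genes the astrocyte level fell below that of the myelin genes in Retro-orbital tumors 1 and 2 and Cheek tumors 2 and 3, with differences of -0.60, -0.76, -0.57 and -0.40. In Retro-orbital tumor 3 it remained 2.19 above, and in the intracranial tumors 0.26 to 1.86 above. In Retro-orbital tumor 4 and Cheek tumor 1 it was 0.069 and 0.17 above. These 8 genes were also set against 5 myelin members that Schwann cells do not use, Mog, Mobp, Opalin, Ermn and Cldn11 (also chosen after seeing the data). The differences in Retro-orbital tumors 1 and 2 and Cheek tumors 2 and 3 were then -0.16, -0.35, -0.032 and 0.16, and those of the other 8 tumors were 0.42 to 2.51. In Meninges tumor 2, Cldn11, which other cells also use, made up 83.4 of the 87.3 RPKM summed over these 5 genes. The astrocyte level was thus above the myelin level under all 3 choices in the 5 intracranial tumors, Retro-orbital tumors 3 and 4 and Cheek tumor 1, and not under all in the other 4. The later choices are drawn from the genes of the first, so the 3 are not independent. Which level is higher depends on the genes averaged, and no normal tissue was compared.

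**Figure D3:**
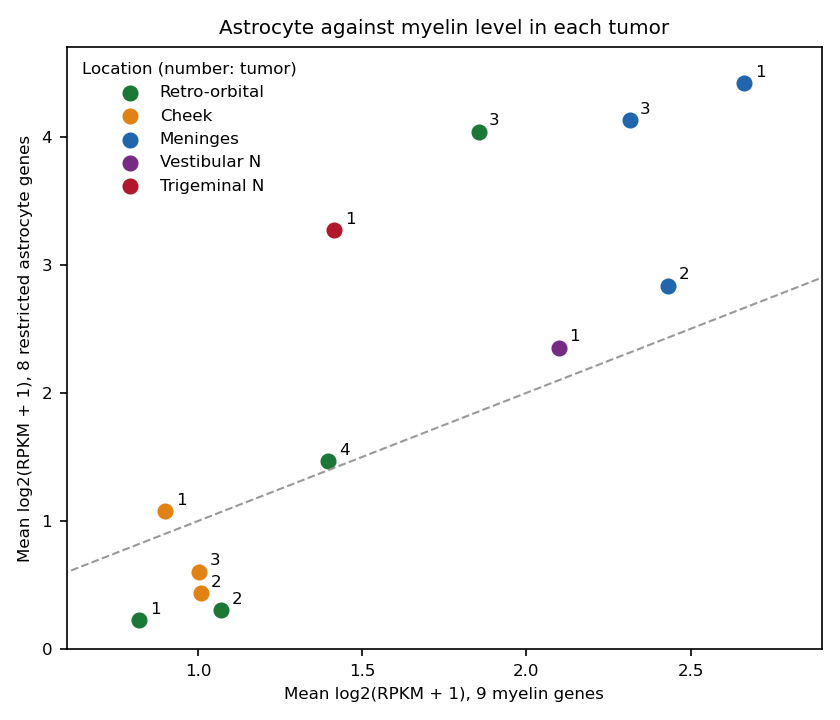
Mean log2(RPKM + 1) of 8 restricted astrocyte genes (vertical) against that of the 9 myelin genes (horizontal), 1 point per tumor colored by location and numbered within it; the dashed line marks equal levels. The 5 intracranial tumors and Retro-orbital tumor 3 lie above the line, Retro-orbital tumor 4 and Cheek tumor 1 close to it, and the other 4 tumors below it.

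None of the other pairs described here passed. Mbp and Mog had r = 0.60 over the 12 tumors (permutation p = 0.039, adjusted p = 0.099; Spearman's coefficient = 0.50, permutation p = 0.097, adjusted p = 0.22), and r was 0.69 without the 2 tumors farthest from the median of Mbp. Gfap and Mog had r = 0.73 within the 7 tumors with high Gfap (exact permutation p = 0.066, adjusted p = 0.099; Spearman's coefficient = 0.68, exact permutation p = 0.11, adjusted p = 0.22), but this rested on 2 tumors, without which r was 0.16. The neuronal gene Snap25, at 5.82 to 30.9 RPKM, gave r = 0.74 with Gfap (exact permutation p = 0.055, adjusted p = 0.099, n = 7; Spearman's coefficient = 0.61, exact permutation p = 0.17, adjusted p = 0.25) and r = 0.34 with Mog (permutation p = 0.29, adjusted p = 0.34, n = 12; Spearman's coefficient = 0.29, permutation p = 0.35, adjusted p = 0.35). Without the 2 farthest tumors these were 0.23 and 0.33. Tumors that share an identifier were treated as independent here.

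Genes outside the cell type lists whose levels were most like those of a member were named by r over the 12 tumors among 14912 genes, as a description that the gap in Gfap shapes. For Gfap they were Scg3 (r = 0.99), Gpm6b, Pcsk1n, Gpm6a and Nfasc (r = 0.97 each). Scg3, a granin of secretory granules, ranged from 0.0686 to 30.5 RPKM. For Mog they were Tmod2 (r = 0.92), Tspan7, Carm1, Rims1 and Bai3 (r = 0.88 for the last), and for Fabp7 they were Lypd6 (r = 0.96), Gria2, Cadps, Lrrc4b and Tagln3 (r = 0.95 for the last). Of these 15 genes, the highest tumor was Meninges tumor 1 or Meninges tumor 3 for each.

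The 5 intracranial tumors were then compared with the 7 extracranial ones for every gene, with limma on log2(RPKM + 1) and Benjamini-Hochberg adjustment over 15043 genes at 0.05. Of the 31 members, 26 passed the filter of 1 RPKM in at least 3 tumors, and Olig2, Sox6, Nkx2-2, Opalin and Ugt8a did not. Olig1, Mog and Mobp passed without reaching 1 RPKM in any extracranial tumor, so they could pass only through the intracranial ones. With all 12 tumors, 0 of the 26 members passed the threshold in either direction, where 20 genes were higher inside the skull (0.133% of those tested) and 9 lower. At an unadjusted p under 0.05, 18 of the 26 members were higher and 0 lower, where 10.5% of all tested genes were higher. These 18 were 11 of 17 astrocyte, 1 of 2 lineage and 6 of 7 myelin members. The lineage member was Olig1, and the tested members include Mog and Mobp. Slc1a2 and Ntsr2 reached 1 RPKM outside the skull only in Retro-orbital tumor 3. For these 5 members the filter itself favored a higher level inside, so the counts say little about them.

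The differences that came nearest were those of Slc1a3 (log2 difference 3.45, SE 0.64, adjusted p = 0.053), Mag (1.63, SE 0.32, adjusted p = 0.066), Mobp (1.14, SE 0.24, adjusted p = 0.084) and Fabp7 (3.06, SE 0.67, adjusted p = 0.095). Gfap had the largest difference of the 26 members, 4.69, but a wide error (SE 1.13, adjusted p = 0.12). The mean log2 level was higher inside the skull for 28 of the 31 members and lower for Gja1, Fgfbp3 and Cspg4. The median difference was 1.72 over the tested astrocyte members, 0.10 over the 2 tested lineage members and 1.14 over the tested myelin members, and 0.13 over all tested genes. All the intracranial values lay above all the extracranial ones for 2 of the 26 members, Mag and Mobp, where 0.771% of tested genes did so. Of these, Mobp was tested only through its intracranial values, so the count says little beyond Mag. The untested Olig2 and Nkx2-2 did so as well.

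**Figure D4:**
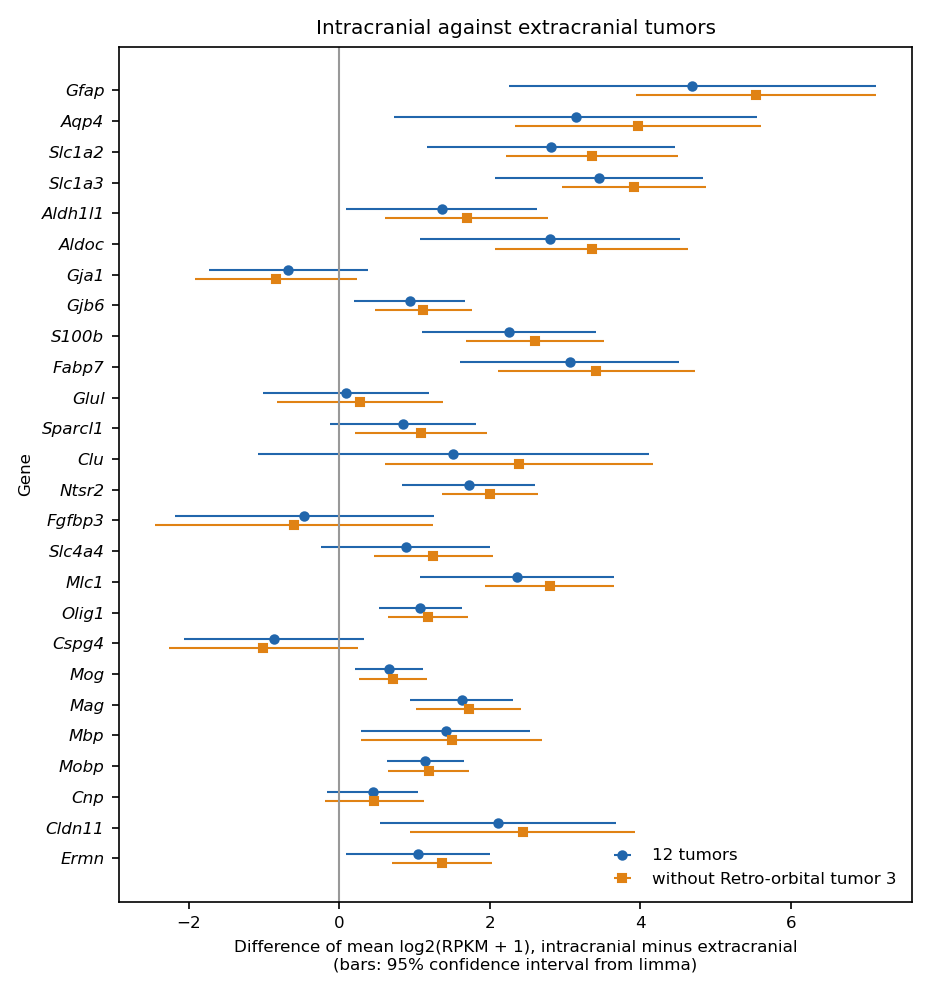
Difference of mean log2(RPKM + 1), intracranial minus extracranial tumors, with 95% confidence intervals from limma for the 26 tested members, for all 12 tumors (blue circles) and without Retro-orbital tumor 3 (orange squares). Leaving this tumor out narrows the intervals of the astrocyte genes and moves Gfap from 4.69 to 5.54, while Mag and Mobp change little.

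Retro-orbital tumor 3 decided how many members passed. Without it, 149 genes were higher inside the skull (1.01% of those tested) and 12 of 26 members were among them: Gfap, Aqp4, Slc1a2, Slc1a3, Aldoc, S100b, Fabp7, Ntsr2 and Mlc1 of the 17 astrocyte members, Olig1 of the lineage members, and Mag and Mobp of the 7 tested myelin members. The difference of Gfap was then 5.54 (SE 0.73, adjusted p = 0.0062), that of Slc1a3 3.91 (SE 0.44, adjusted p = 0.0023), that of Mlc1 2.80 (SE 0.39, adjusted p = 0.0079) and that of Mag 1.72 (SE 0.32, adjusted p = 0.025). The other 8 had differences of 1.18 to 3.96. Slc1a2, Ntsr2, Olig1 and Mobp reached 1 RPKM in none of the other 6 extracranial tumors and passed the filter only through the intracranial ones, which leaves 8 called members apart from them. All intracranial values lay above the remaining extracranial ones for 11 of 26 members, 7 apart from those 4, where 2.08% of tested genes did so; Aqp4 was the called gene that overlapped, through Cheek tumor 1. The tumor shares its identifier with the Trigeminal N tumor of the other side, and its values were known when it was singled out, so these calls describe the other 11 tumors.

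Among Retro-orbital, Cheek and Meninges alone, the moderated F test of limma called 6 of 14745 genes (0.0407%) and 0 of the 24 members tested, with 12 of the 24 at an unadjusted p under 0.05, where 14.3% of all tested genes were. The smallest adjusted p of a member was 0.104, for Mag. In this fit Mobp reached 1 RPKM only in the Meninges tumors, and Slc1a2 and Ntsr2 only there and in Retro-orbital tumor 3. For these genes the filter itself favored a higher level in Meninges, so the count of 12 says little about them. Without Retro-orbital tumor 3, 56 of 14445 genes (0.388%) and 6 of 24 members were called (Gfap, Slc1a2, Slc1a3, S100b, Mlc1 and Mag). Of these, Slc1a2 reached 1 RPKM in no remaining Retro-orbital or Cheek tumor, as did the uncalled Ntsr2 and Mobp. Slc1a2 therefore passed the filter only through the Meninges tumors where it was high, and its call says little.

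Markers of other cells also differed between the tumors, and their part in the results was not tested. In Retro-orbital tumor 3 the ciliated cell genes Foxj1 and Tmem212 were at 39.2 and 24.6 RPKM, against at most 4.10 and 1.72 RPKM in the other 11 tumors; this pair was picked after its values were seen. The rest of the ependyma and choroid plexus list did not follow, with Folr1 at 5.51 RPKM in this tumor against 9.50 RPKM in Meninges tumor 3, Kcnj13 at 3.15 RPKM against 1.59 to 4.13 RPKM elsewhere and Ttr at 0.0430 RPKM. In this tumor 4 of the 5 genes reached 1 RPKM, as they did in Cheek tumor 1, Meninges tumor 1 and the Vestibular N tumor. The summed RPKM of that list was 72.5 in this tumor, 2.04 to 12.6 in the other extracranial tumors and 4.50 to 104 in the intracranial ones, where the Vestibular N tumor carried the choroid plexus gene Ttr at 96.1 RPKM. The summed RPKM of the 9 retinal genes was 0.844 to 2.72 outside and 1.26 to 3.85 inside the skull.

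Of the other lists, 2 of 14 tested further oligodendrocyte genes were higher inside the skull, where 0.133% of all tested genes were. Among them was Klk6 (a protease of oligodendrocytes, log2 difference 2.18, SE 0.37, adjusted p = 0.045). Klk6 was at 9.98, 4.21 and 9.76 RPKM in Meninges, 1.80 RPKM in Vestibular N and 3.32 RPKM in Trigeminal N, and at 0 to 1.48 RPKM outside. Outside, Klk6 reached 1 RPKM only in Retro-orbital tumor 3, so it passed the filter through the intracranial tumors where it was high. Of 22 tested further astrocyte genes 0 passed, with a median difference of 0.66. Of these, 11 were higher at an unadjusted p under 0.05, where 10.5% of all tested genes were. Among the 22, Atp1b2, Hepacam, Gpr37l1, Bcan, Etnppl and Slc6a11 reached 1 RPKM outside the skull only in Retro-orbital tumor 3. For these genes the filter itself favored a higher level inside, so the count says little about them. Of 13 neuronal genes, Syp, a synaptic vesicle protein, passed (1.81, SE 0.28, adjusted p = 0.025), and the median of the list was 0.77. None of 9 Schwann cell genes passed (median 0.58, with 2 at an unadjusted p under 0.05), nor did any of 7 microglia, 6 arachnoid, 4 ependyma and choroid plexus, 1 retinal and 7 muscle genes, where 1, 2, 0, 0 and 3 had an unadjusted p under 0.05. The 3 muscle genes were lower inside the skull, where 618 of all 15043 tested genes were lower at an unadjusted p under 0.05. The summed muscle RPKM was 14.8 to 600.2 outside and 7.17 to 442 inside.

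**Figure D5:**
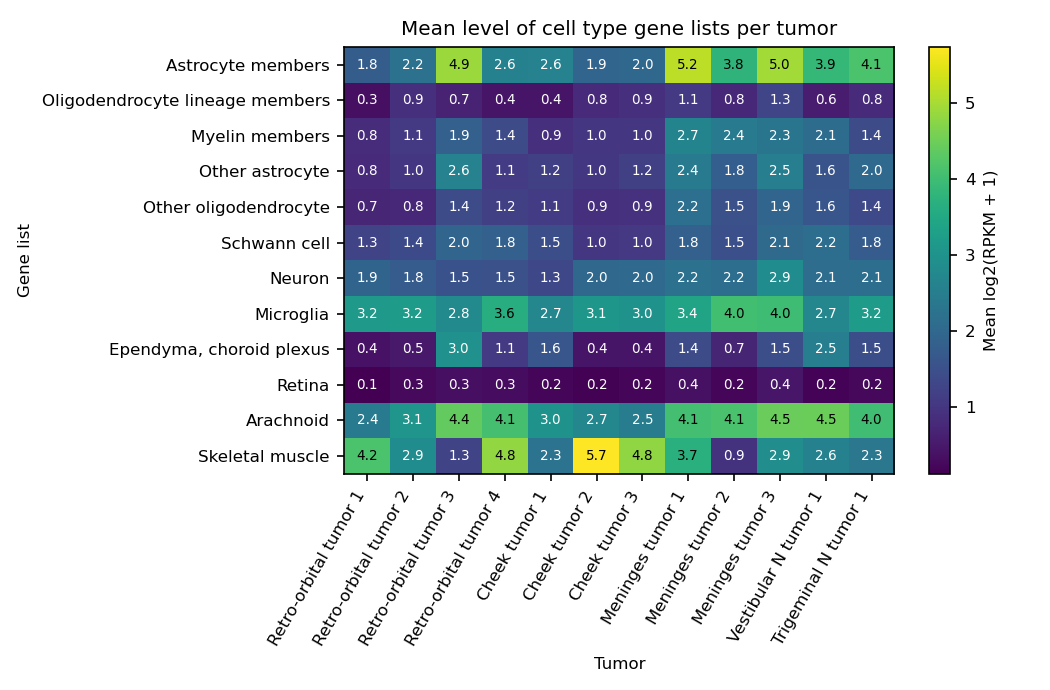
Mean log2(RPKM + 1) of each cell type list (rows) in each of the 12 tumors (columns), printed in the cells and shown as color. The astrocyte row is at 3.8 to 5.2 in the intracranial tumors and 4.9 in Retro-orbital tumor 3, which also has the highest mean of the ependyma and choroid plexus list, whereas the retina row stays at 0.4 or below.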

How the data were processed

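RNA of 12 tumors was made into stranded libraries after removal of ribosomal RNA and sequenced as a single pool. The deposited files hold an RPKM value for every gene in each tumor; per the submitters' processing notes and the study's methods, reads were demultiplexed with bcl2fastq 2.17 and aligned to mm10 with STAR, and uniquely mapped fragments were counted on RefSeq genes with HTSeq. The transcript length and mapped-read set behind RPKM are not stated, and reads shared by paralogs were lost at unique mapping.

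RPKM values are not counts, so tests used limma 3.58.1 in R 4.3.3 (trended, robust prior) on log2(RPKM + 1), which understates changes of low genes, for genes at 1 RPKM or more in at least 3 fitted tumors. Permutation tests were exact for 7 tumors and used 100000 resamples for 12. Correlations had been planned over 12 tumors; pairs with Gfap were restricted to the 7 tumors above 10 RPKM because the values fell into separate sets. P-values were adjusted over the 6 planned pairs, of which 1 is not reported here. Fragments were recovered at the smallest length that made a gene's 12 values whole within 0.02 of a fragment, for 19938 genes. Floors of 3 fragments cover counting error only, and limma's intervals the spread between tumors. Date-like names replaced the symbols of 27 rows, which were tested but never named. In simulated data on 15043 genes for the intracranial comparison, planted log2 changes of 1, 2 and 4 were recovered in 37.3%, 74.6% and 95.5% of cases. Those data had normal noise, independent between genes, and no single outlying tumor. There 145 genes were called, against 20 higher and 9 lower in the real data. The shares are therefore not the power for the members. Promoters are from RefSeq on GRCm38.p6. Other steps ran in Python 3.11.15 (numpy 2.4.6, pandas 2.3.3, scipy 1.17.1; plots in matplotlib 3.10.9).

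The members and lists were chosen with earlier results of these data known. Named genes are all members, Smarcb1, genes of the other lists past the threshold or among the 3 highest of their list by mean RPKM (not all described), Snap25 from the planned pairs, Tmem212 and Folr1 (chosen after their values were seen), and the 5 genes most like Gfap, Mog and Fabp7. Nothing says whether tumors of a location came from separate animals, so p-values measure the spread between these tumors. Cheek tumors 2 and 3, which share an identifier, were the most alike, with a chi-square of 25.3 per degree of freedom on fragments. The other pairs within a location had 231 to 674. A value above sampling noise does not show that 2 tumors are independent. Cheek tumors 2 and 3 were nevertheless counted separately in the main fits. The pseudocount, filter, scaling, identifier block, averaging of those cheek tumors, fitted tumors and gene lists were varied, and each tumor was left out in turn.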

Additional observations from a re-analysis of the deposited data

Results flagged for a closer look

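For each of the 31 members, Dixon's test was run on log2(RPKM + 1) of the 4 Retro-orbital tumors. It sets the gap between the farthest tumor and its neighbor against the whole range, and chance passes it in about 1 in 20 groups. In this way 6 genes stood out. Retro-orbital tumor 3 was far above the others for Olig1 (gap 0.868 of the range) and Ermn (0.933), and for Opalin (1), where the other 3 tumors had 0 fragments. Retro-orbital tumor 2 was far above the others for Fgfbp3 (0.898), at 68.0 RPKM against at most 2.75 RPKM. The flags for Olig2 (1, Retro-orbital tumor 4) and Nkx2-2 (1, Retro-orbital tumor 2) rest on 8 and 2 fragments beside tumors with 0.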

How the results depend on the processing

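No paired analysis by replicate number was possible because the labels carry none; tumors that share an identifier were blocked instead. The 20 genes higher inside the skull became 2 with the cheek tumors of 1 identifier averaged, 74 with the shared identifier as a block (estimated correlation 0.67), 53 without the filter and 9 with a pseudocount of 0.1. The 9 lower genes became 4 with Meninges as the only intracranial group, 3 with the cheek tumors averaged and 38 with the identifier block. Of the members, 1 passed with Meninges only (Mag, log2 difference 2.06, adjusted p = 0.034) and 1 without the filter (Nkx2-2). The 6 genes of the F test became 0 with the cheek tumors averaged, 10 without the filter and 2802 with the identifier block, which also called 20 members. That block's estimated correlation of 0.93 comes from few pairs of tumors, so these calls are not used.

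With 1 tumor left out at a time, 2 to 149 genes were higher, 3 to 38 lower, 0 to 12 members higher and 0 lower; the F test called 0 to 198 genes and 0 to 6 members. The highest number was without Retro-orbital tumor 3, except for the F test over all genes, where it was without Cheek tumor 1. Fabp7 also passed without Meninges tumor 2 (3.62). The range of r was 0.861 to 0.978 for Gfap and Aqp4, 0.413 to 0.945 for Gfap and Mog, 0.493 to 0.778 for Mbp and Mog, 0.429 to 0.857 for Gfap and Snap25 and 0.152 to 0.439 for Mog and Snap25. The adjusted p fell under 0.05 for Gfap and Mog without the Vestibular N tumor and for Mbp and Mog without Retro-orbital tumor 1 or 4.

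Of 26 tested members, 22 kept the sign of their difference under all 19 alternatives, and Mog and Olig1 under the 15 in which they were tested. Glul changed sign without Cheek tumor 1, Meninges tumor 1 or Retro-orbital tumor 1 (-0.087, -0.11 and -0.21, range with 1 tumor left out -0.21 to 0.28, over all alternatives -0.21 to 0.33), and Fgfbp3 without Retro-orbital tumor 2 (0.18, range with 1 tumor left out -0.96 to 0.18, over all alternatives -1.03 to 0.18). With 8 restricted astrocyte genes the level minus that of myelin genes was -0.60, -0.76, -0.57 and -0.40 in Retro-orbital tumors 1 and 2 and Cheek tumors 2 and 3, and against 5 myelin genes it was -0.16, -0.35 and -0.032 in Retro-orbital tumors 1 and 2 and Cheek tumor 2. The causes were not tested. The median difference of all genes was 0.13, and 0.025 after quantile normalization, 0.15 after rescaling every tumor to the same sum and 0.16 with a pseudocount of 0.1. Olig2, Nkx2-2 and Opalin rest on few or no fragments in many tumors.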
